A study of Homo sapiens with 2 samples.

Results

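ERBB3, NGFR, S100B, GPM6B, FABP7, SCRG1 and TIMP3 are 7 genes linked to glia and to Schwann cell precursors, out of 20722 genes listed for 1 or both libraries. They were chosen by name with their measured levels in these cells already known, so the levels below describe them and no test was made on them. All 7 were listed for both libraries. The minimum for a gene to enter a comparison was 10 CPM (UMIs per 1000000 UMIs) in 1 of the 2 cell sums compared. All 7 passed it in every comparison except S100B between the lines in neural cells (4.56 and 3.77 CPM), whose values there are given as a description below the minimum.

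UMIs were counted by gene in single cells of neuruloids, colonies of human embryonic stem cells that organize themselves into the tissues of the early ectoderm. RUES2 is a widely used line of such cells. Its isogenic derivative, called 56CAG here, carries 56 CAG repeats in HTT, the Huntington disease gene, per its label. Colonies of both lines had a diameter of 500 µm, were kept in SB431542 (10 µM), an inhibitor of the TGF-beta type I receptors, and first also received LDN193189 (0.2 µM), an inhibitor of BMP receptors. On day 3 LDN193189 was replaced by BMP4 (3 ng/mL), and cells were dissociated on day 7. Each line was grown on its own cover slip and gave 1 droplet library, so that line, cover slip and library cannot be told apart. No difference has a replicate check, and every interval below is a 95% interval for counting error only.

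Schwann cell precursors arise from the neural crest and travel along growing nerves, where neuregulin from the axon acts on the receptor ERBB3 to keep them alive. They keep SOX10, a crest transcription factor, and switch on glial genes long before they make myelin. Several of the same genes are also used by radial glia, the stem cells of the developing neural tube, so that a glial gene in ectoderm can belong to either lineage.

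Cells were sorted into classes by genes that are not among the 7. Neural cells held at least 6 UMIs of PAX6, SOX2, CDH2 and SFRP1 per 10000 UMIs, and crest cells at least 3 UMIs of TFAP2B and SOX10. RUES2 gave 1185 neural and 920 crest cells, 116 cells past both limits and 405 other cells. The 56CAG library gave 904 neural and 2148 crest cells, 264 past both limits and 705 others. Cells past both limits had a median of 26821 UMIs in RUES2 and 18946 in 56CAG, against 12118 and 9040 in neural cells and 14510 and 11057 in crest cells. They are given apart, and doublets were not removed. Cells within 2 UMIs of the neural limit or 1 UMI of the crest limit made up 26.6% of RUES2 and 29.3% of 56CAG cells. The libraries shared 11 cell barcodes.

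Defining markers set the crest class apart from mature glia. Of the Schwann precursor markers, SOX10 was at 101 CPM in RUES2 crest cells and 93.8 CPM in those of 56CAG, and was lower in neural cells, at 17.2 CPM in 56CAG. FOXD3, a crest transcription factor, was at 90.9 and 52.0 CPM in crest and 11.1 and 11.4 CPM in neural cells, and ITGA4, an integrin of migrating crest, at 88.7 and 59.8 CPM in crest and 10.7 and 15.7 CPM in neural cells. DHH, a Schwann lineage signal, had 0 UMIs in RUES2 crest cells and 0.0330 CPM in 56CAG crest cells. CDH19, a cadherin of Schwann precursors, was at 7.27 and 1.98 CPM. The 5 markers of myelinating Schwann cells summed to 11.5 and 14.6 CPM in crest cells, and the 4 astrocyte markers to at most 3.26 CPM in any of the neural, crest or other classes. The 5 oligodendrocyte markers summed to at most 8.52 CPM there. The label of Schwann precursor genes thus rested here on FOXD3, ITGA4 and SOX10, the last of which also set the class, while DHH and CDH19 were at or near 0.

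Promoters of 4 of the 7 genes were matched by symbol in RefSeq (GRCh38.p14, another build than the hg19 of the counts). They are shown because SCRG1 and TIMP3 were high in crest cells and FABP7 and GPM6B were not. Each line gives the 250 bases before the start site, 5′ to 3′ on the gene's strand. SCRG1 lies at chr4:173399117-173399366 (minus strand), TIMP3 at chr22:32801455-32801704 (plus), FABP7 at chr6:122779466-122779715 (plus) and the first of 2 GPM6B promoters at chrX:13938639-13938888 (minus). Capitals mark ACAAAG, the core letters bound by SOX factors, and GCCNNNGGC, the palindrome bound by TFAP2 factors, searched on both strands.
SCRG1: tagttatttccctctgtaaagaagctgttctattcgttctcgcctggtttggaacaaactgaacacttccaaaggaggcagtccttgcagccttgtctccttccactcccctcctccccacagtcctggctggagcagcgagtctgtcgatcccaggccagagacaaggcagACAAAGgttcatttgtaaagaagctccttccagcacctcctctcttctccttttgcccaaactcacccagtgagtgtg
TIMP3: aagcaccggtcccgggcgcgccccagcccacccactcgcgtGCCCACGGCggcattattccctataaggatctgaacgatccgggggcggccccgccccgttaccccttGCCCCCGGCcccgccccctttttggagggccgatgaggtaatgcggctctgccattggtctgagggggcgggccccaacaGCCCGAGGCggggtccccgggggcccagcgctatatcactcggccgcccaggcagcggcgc
FABP7: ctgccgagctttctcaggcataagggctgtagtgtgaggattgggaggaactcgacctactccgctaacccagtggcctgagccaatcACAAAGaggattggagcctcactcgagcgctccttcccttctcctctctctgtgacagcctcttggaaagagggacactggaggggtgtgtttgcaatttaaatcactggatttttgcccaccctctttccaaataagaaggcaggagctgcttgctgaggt
GPM6B: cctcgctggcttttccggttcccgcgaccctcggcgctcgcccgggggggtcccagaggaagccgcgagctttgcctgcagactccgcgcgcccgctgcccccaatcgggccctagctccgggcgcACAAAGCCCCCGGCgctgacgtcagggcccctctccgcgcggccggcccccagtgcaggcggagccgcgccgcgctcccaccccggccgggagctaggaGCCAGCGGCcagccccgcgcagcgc
ACAAAG stood 78 bases before the start of SCRG1, 162 before that of FABP7 and 124 before that of GPM6B, where it overlapped 1 of 2 TFAP2 palindromes. TIMP3 held 3 TFAP2 palindromes and 0 copies of ACAAAG, and the second GPM6B promoter held neither. In windows running from 250 bases before to 50 after the start, 16.1% of 35116 promoters held ACAAAG and 23.2% held the palindrome. The gene that was high in crest cells and the genes that were not therefore shared ACAAAG in this window. A match is a run of letters, not a site shown to be bound.

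Levels differed most between crest and neural cells, and 5 of the 7 genes were at least 2-fold higher in crest cells in both libraries. Of all genes at or above the minimum, 3.73% passed the same fold in RUES2 and 2.82% in 56CAG. Since the genes were picked with this contrast known, nothing is read from that count.

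**Figure D1:**
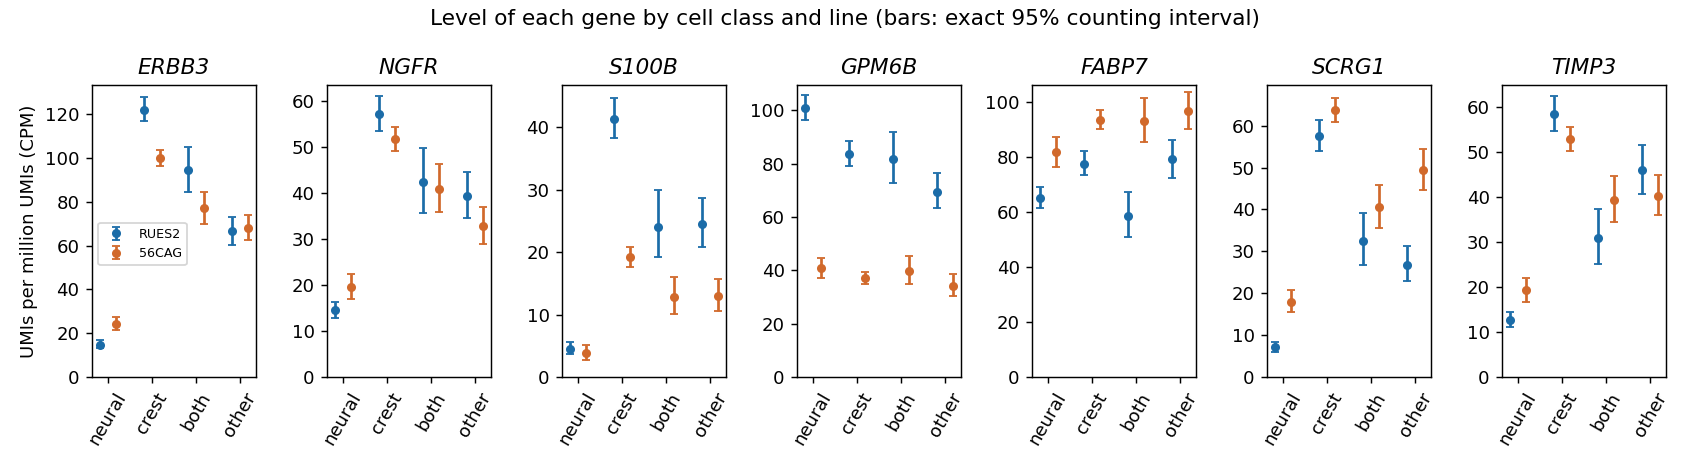
Level of each gene (y axis, CPM) in neural, crest, both-limit and other cells of RUES2 and 56CAG, with exact Poisson intervals as bars. ERBB3, NGFR, S100B, SCRG1 and TIMP3 peak in crest cells in both lines, GPM6B is lower in 56CAG in all 4 classes, and FABP7 varies little between classes.

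ERBB3 encodes the neuregulin receptor of Schwann precursors, which signals by pairing with other ERBB receptors. It was at 14.8 CPM in neural and 122 CPM in crest cells of RUES2 (intervals 13.1 to 16.7 and 117 to 128), and at 24.2 and 99.9 CPM in 56CAG. Other cells held 66.6 and 68.0 CPM and cells past both limits 94.4 and 76.9 CPM, so the crest class was highest and the neural class lowest in both lines. Crest over neural, the ratio was 8.25-fold in RUES2 and 4.12-fold in 56CAG. With every cell thinned to 5400 UMIs, ERBB3 was seen in 47.6% of RUES2 and 39.4% of 56CAG crest cells, against 3.80 and 6.19% of neural cells. Without thinning these shares were 79.7, 63.5, 10.6 and 16.2%.

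NGFR encodes p75, a neurotrophin receptor long used to sort crest cells. Its level was 14.5 CPM in neural and 57.3 CPM in crest cells of RUES2, and 19.6 and 51.8 CPM in 56CAG. Other cells lay between, at 39.4 and 32.8 CPM. The crest over neural ratio was 3.95-fold in RUES2 and 2.64-fold in 56CAG. It was below 2-fold in 56CAG (log2 ratio 0.93) when cells past both limits were counted as neural. At equal depth NGFR was seen in 24.3 and 23.0% of crest cells and in 6.67 and 8.52% of neural cells of RUES2 and 56CAG.

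S100B encodes a calcium-binding protein and is a standard glial marker. It was at 4.56 CPM in neural and 41.4 CPM in crest cells of RUES2, and at 3.77 and 19.2 CPM in 56CAG. Its crest over neural ratio was 9.08-fold and 5.09-fold. The neural values rested on 81 and 40 UMIs. In crest cells the RUES2 interval (38.3 to 44.7 CPM) and the 56CAG interval (17.7 to 20.8) did not overlap.

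SCRG1 encodes a small secreted protein first found as raised in scrapie-infected brain. Its level was 7.09 CPM in neural and 57.5 CPM in crest cells of RUES2, and 17.9 and 63.8 CPM in 56CAG, ratios of 8.11-fold and 3.56-fold. Other cells held 26.8 CPM (RUES2) and 49.4 CPM (56CAG). SCRG1 thus differed little between the lines in crest cells and more outside them.

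TIMP3 encodes a metalloproteinase inhibitor held in the extracellular matrix. It was at 12.6 CPM in neural and 58.5 CPM in crest cells of RUES2, and at 19.2 and 52.9 CPM in 56CAG, ratios of 4.64-fold and 2.75-fold. Other cells held 45.9 and 40.2 CPM. One RUES2 cell of the other class carried 51 of that class's 291 TIMP3 UMIs (17.5%). Without the cell with most TIMP3 UMIs in each library, other cells were at 38.0 and 38.9 CPM. TIMP3 lies within SYN3 on the opposite strand, and SYN3, a synapsin gene, was at 1.20 and 1.09 CPM in crest cells.

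GPM6B and FABP7 did not share this pattern. GPM6B encodes a membrane proteolipid that neurons and glia both make. It was at 101 CPM in neural and 83.8 CPM in crest cells of RUES2, and at 40.7 and 37.1 CPM in 56CAG. The log2 ratio, crest over neural, was -0.27 (-0.37 to -0.17) in RUES2 and -0.14 (-0.30 to 0.03) in 56CAG, and the latter took the other sign on thinned counts (0.08). FABP7 encodes brain lipid-binding protein, a fatty acid carrier of radial glia and Schwann precursors. It was at 65.2 CPM in neural and 77.7 CPM in crest cells of RUES2, and at 81.8 and 93.7 CPM in 56CAG, log2 ratios of 0.25 and 0.20. Its highest class was other cells in both lines (79.2 and 96.7 CPM), a value within the counting interval of the crest class in each.

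A finer scale was drawn from the same sum of TFAP2B and SOX10 that set the crest class. It leaves out the neural cells, so it describes levels and is no check of the order of the classes. Among cells under the neural limit, ERBB3 was at 12.1 CPM in RUES2 cells with 0 UMIs of TFAP2B and SOX10, at 80.5 CPM in cells with 1 to 2 per 10000 and at 116 CPM in cells with 3 to 5. Above 8 it was 125 CPM. In 56CAG the same steps were 29.2, 69.9, 97.2 and 101 CPM. ERBB3 thus reached most of its level below the crest limit of 3, and the other class held part of this range. S100B went from 6.04 to 45.3 CPM between the cells with 0 and those with 3 to 5 in RUES2, and from 4.17 to 18.8 CPM in 56CAG. FABP7 ranged only from 65.8 to 93.2 CPM over the 7 steps in RUES2, and GPM6B from 65.9 to 85.8 CPM. In 56CAG GPM6B ranged from 28.4 to 39.6 CPM and FABP7 from 73.6 CPM (60.3 to 89.1) at 0 to 119 CPM (97.9 to 143) in the next step. That step held 63 cells, and 1 cell carried 24 of its 113 FABP7 UMIs. The RUES2 peak of TIMP3 at more than 0 and under 1 per 10000 (89.3 CPM, 49 cells) held the cell with 51 UMIs out of 84.

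**Figure D2:**
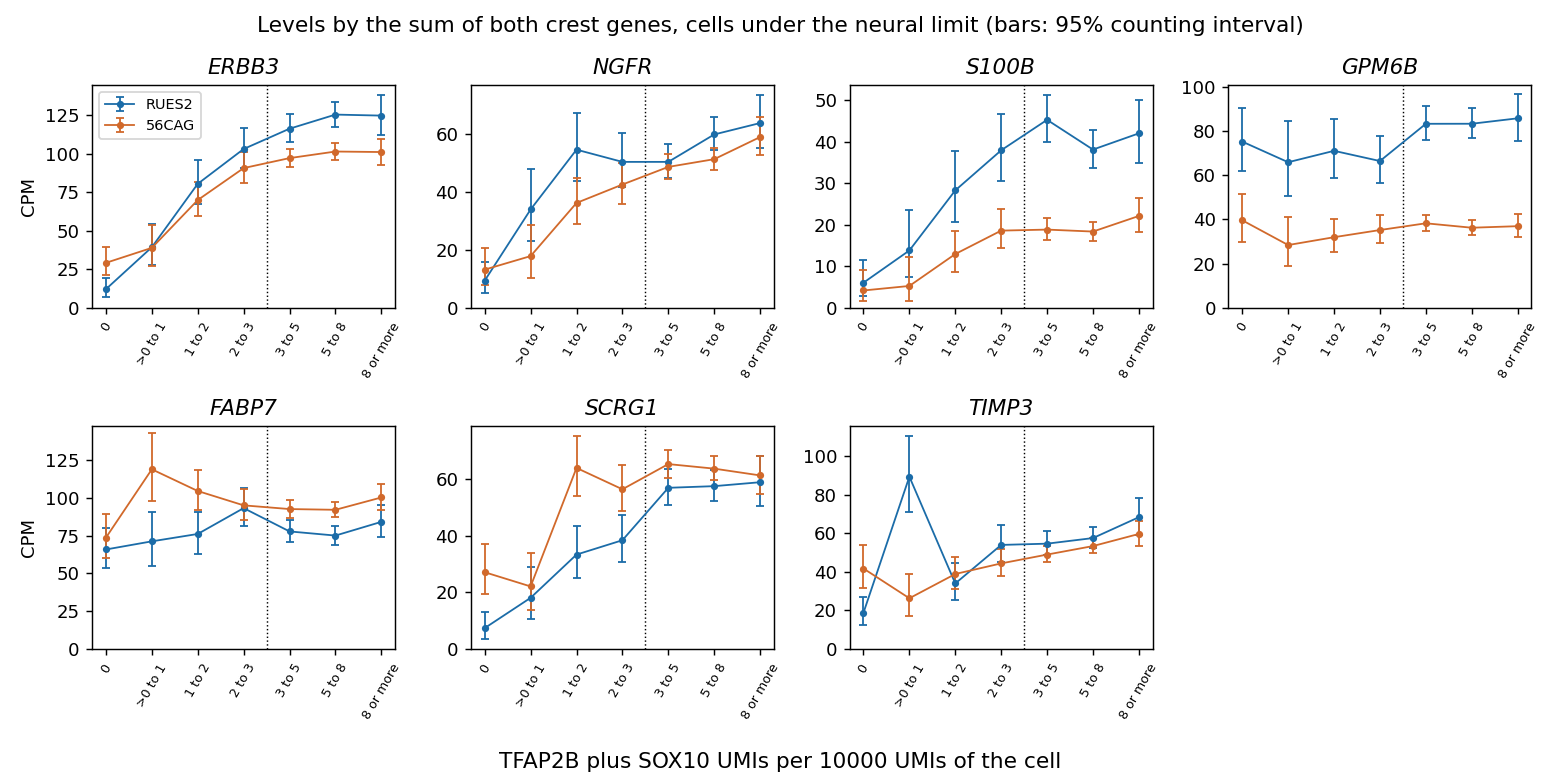
Levels in CPM (y axis) of the 7 genes in cells under the neural limit, by TFAP2B plus SOX10 UMIs per 10000 UMIs of the cell (x axis); bars are counting intervals and the dotted line is the crest limit of 3. ERBB3 climbs from 12.1 to 125 CPM in RUES2 and from 29.2 to 101 CPM in 56CAG. FABP7 and GPM6B vary less, with FABP7 in 56CAG between 73.6 and 119 CPM.

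Cells rarely showed many of the genes at once. At 5400 UMIs, RUES2 crest cells showed a mean of 2.14 of the 7 genes and 56CAG crest cells 1.79, against 0.887 and 0.827 in neural cells. Of the 5 genes that were high in crest cells, at least 2 were seen in 44.5 and 36.8% of crest cells and in 1.86 and 5.53% of neural cells. None of the 5 was seen in 20.1 and 25.5% of crest cells at this depth. Within crest cells, the share of cells showing both genes of a pair was 0.891 to 1.25 times the product of both shares over the 21 pairs and both lines. SCRG1 and TIMP3 had the highest such ratio in RUES2 (1.25, 79 cells) and reached 1.17 in 56CAG (161 cells).

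**Figure D3:**
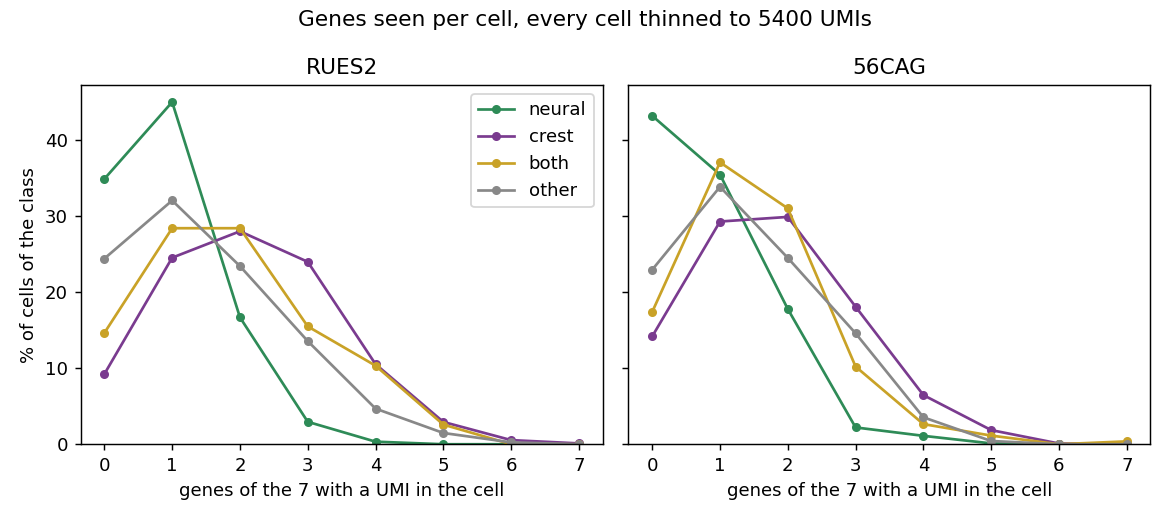
Share of cells (y axis, percent of the class) by how many of the 7 genes showed a UMI (x axis) after thinning to 5400 UMIs, for 4 classes of each line. Neural cells peak at 0 or 1 gene, whereas 38.2% of RUES2 and 26.5% of 56CAG crest cells showed 3 or more.

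The lines were next compared within a class. Over all genes at or above the minimum, the median log2 ratio (56CAG to RUES2) was -0.15 in crest, -0.17 in neural and -0.18 in other cells, and values relative to it are given where they alter the reading. In crest cells, 2 of the 7 genes, S100B and GPM6B, were at least 2-fold lower in 56CAG, where 1.33% of all genes were. S100B had a log2 ratio of -1.11 (-1.27 to -0.94) and GPM6B one of -1.18 (-1.29 to -1.06). S100B came to -0.96 relative to the median of all genes and to -0.98 with limits of 8 and 4 in place of 6 and 3, just short of 2-fold. The other 5 genes lay between -0.29 (ERBB3) and 0.27 (FABP7), and FABP7 came to 0.08 on thinned counts. Relative to the median of all genes, NGFR and TIMP3 were at 0.00 and ERBB3 at -0.14.

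In neural cells GPM6B was again lower in 56CAG (-1.31, -1.47 to -1.16), where 1.47% of all genes were at least 2-fold lower. SCRG1 was higher, at 1.34 (1.00 to 1.67), where 0.332% of all genes were at least 2-fold higher. ERBB3 (0.71), TIMP3 (0.61), NGFR (0.43) and FABP7 (0.33) were higher in 56CAG neural cells too, with intervals above 0. Thinned counts and classes brought ERBB3 to 0.15 and NGFR to 0.09. S100B, below the minimum, was at -0.27 with an interval of -0.86 to 0.29. In other cells GPM6B was the only one of the 7 genes past 2-fold (-1.02, against 1.9% of all genes lower), and SCRG1 was at 0.88 and S100B at -0.92. Relative to the median of all genes GPM6B came to -0.85 and SCRG1 to 1.06, so that SCRG1 and not GPM6B was past 2-fold there. FABP7 was also higher in 56CAG in other cells (0.29, 0.12 to 0.45) and in cells past both limits (0.67, 0.43 to 0.91). Under the alternatives its ratio in other cells ranged from 0.06 to 0.61. Over all cells together, GPM6B was at -1.23 (1.81% of all genes lower) and SCRG1 at 0.73, values that also carry the differing shares of the classes.

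**Figure D4:**
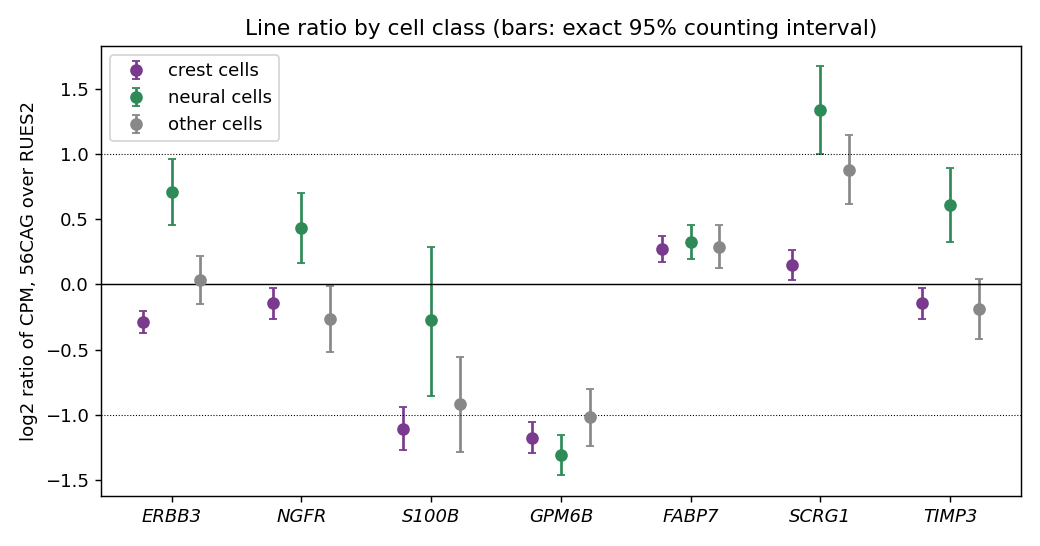
Each gene's log2 CPM ratio, 56CAG over RUES2 (y axis), in crest, neural and other cells, with exact counting intervals; dotted lines mark 2-fold. GPM6B lies near or below -1 in all 3 classes, whereas SCRG1 is at 0.15 in crest and 1.34 in neural cells.

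The line ratio of several genes depended on the class. The ratio in neural cells exceeded that in crest cells by 1.00 for ERBB3 (counting interval 0.74 to 1.26), 1.19 for SCRG1 (0.84 to 1.53), 0.83 for S100B (0.26 to 1.40), 0.75 for TIMP3 (0.46 to 1.05) and 0.58 for NGFR (0.29 to 0.87). GPM6B (-0.13) and FABP7 (0.06) had intervals that spanned 0. Put as a level, neural cells held 12.1% of the crest level of ERBB3 in RUES2 and 24.3% in 56CAG. For SCRG1 these were 12.3 and 28.1%, for TIMP3 21.6 and 36.4%. For FOXD3, a crest gene that the class limits did not use, the interval of this share was 10.5 to 14.2% in RUES2 and 18.1 to 26.4% in 56CAG, with neural levels of 11.1 and 11.4 CPM. Whether free RNA, doublets or crest genes made by the neural cells themselves gave these levels was not tested.

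Neural cells with 0 UMIs of TFAP2B and SOX10 made up 77.6% of the class in RUES2 (920 cells, median 11372 UMIs) and 62.6% in 56CAG (566 cells, median 8343 UMIs). In them ERBB3 was at 2.89 CPM (RUES2) and 4.07 CPM (56CAG), a log2 ratio of 0.50 (-0.36 to 1.32). TIMP3 was at 9.16 and 9.88 CPM (0.11, -0.40 to 0.60) and NGFR at 10.4 and 11.8 CPM (0.18, -0.29 to 0.63). S100B was at 1.53 and 0.775 CPM (18 and 4 UMIs), a ratio of -0.98 (-3.00 to 0.62), near its crest ratio of -1.11. SCRG1 was higher in 56CAG, at 3.31 and 7.56 CPM (1.19, 0.51 to 1.87). FABP7 was also higher, at 63.9 and 80.2 CPM (0.33, 0.15 to 0.50). GPM6B was at 106 and 37.0 CPM (-1.53, -1.75 to -1.30). The higher level of ERBB3, NGFR and TIMP3 in 56CAG neural cells was therefore not resolved in cells without crest UMIs. The higher levels of SCRG1 and FABP7 and the lower level of GPM6B were resolved there. For S100B the interval of the line ratio in these cells also held its crest ratio, so a difference in line ratio between the classes was not resolved.

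GPM6B is on the X chromosome, and the other 6 genes are on autosomes 4, 6, 12, 17, 21 and 22. In crest cells 32 of 279 X-linked genes (11.5%) were at least 2-fold lower in 56CAG, against 66 of 7079 autosomal genes (0.932%), and 19 X-linked genes had a lower ratio than GPM6B. In neural cells 35 of 301 X-linked genes (11.6%) and 76 of 7380 autosomal genes (1.03%) were that much lower, and 10 X-linked genes were below GPM6B. The medians differed little, at -0.19 for X-linked and -0.15 for autosomal genes in crest cells. A subset of X-linked genes, rather than the chromosome as a whole, thus lay apart, and GPM6B lay among them.

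**Figure D5:**
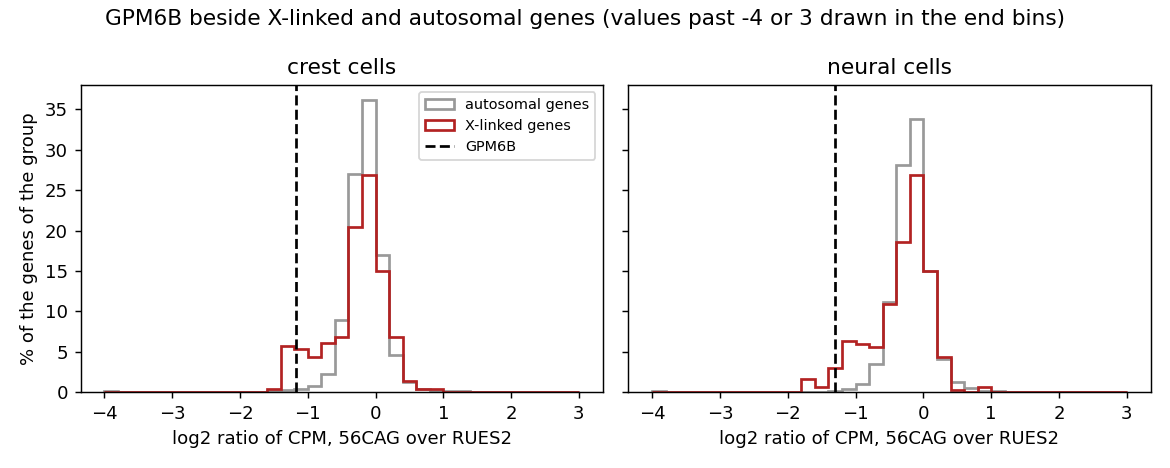
Distribution of log2 CPM ratios, 56CAG over RUES2 (x axis), of X-linked and autosomal genes as percent of each group (y axis) in crest and neural cells; the dashed line is GPM6B. X-linked genes have a shoulder at about the ratio of GPM6B, with 11.5% of them at least 2-fold lower in crest cells.

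Within the crest class some of the genes varied with other features of the cells. On thinned counts TIMP3 was lower in mitotic crest cells, those with at least 5 UMIs of 8 mitosis genes per 10000. It was at 49.5 CPM in them and 80.7 CPM in the rest in RUES2 (log2 ratio -0.70, -1.04 to -0.37), and at 39.3 and 65.8 CPM in 56CAG (-0.74, -0.99 to -0.50). SCRG1 was also lower in mitotic cells, at -0.47 and -0.23. TIMP3 was higher in crest cells with a UMI of MITF, the transcription factor of the pigment lineage, at 81.7 against 58.0 CPM in RUES2 and 71.8 against 51.5 CPM in 56CAG. In 56CAG crest cells with a UMI of NEUROG1, a factor of sensory neurons, every gene of the 7 but NGFR (-0.01) was lower, with intervals below 0. S100B was at 9.15 CPM against 22.5 CPM in the rest (-1.30, -2.02 to -0.65) and TIMP3 at 34.9 against 58.5 CPM (-0.75, -1.10 to -0.41). ERBB3 was at -0.41, GPM6B at -0.37, SCRG1 at -0.34 and FABP7 at -0.29. In RUES2 the interval of each of the 7 spanned 0, with S100B at 32.7 and 44.4 CPM (-1.23 to 0.26). MITF was seen in 32.3% of RUES2 and 11.4% of 56CAG crest cells, and NEUROG1 in 11.1 and 19.8%. In crest cells without a MITF UMI, S100B was at 41.3 CPM (RUES2) and 19.1 CPM (56CAG). Crest cells were also split by a UMI of SOX10, which helped set the class. In RUES2 the interval of each of the 7 spanned 0, with ERBB3 at 0.17 (-0.07 to 0.40). In 56CAG S100B (0.52, 0.14 to 0.91) and TIMP3 (0.25, 0.01 to 0.48) were higher with SOX10. The intervals of the other genes spanned 0 there, with ERBB3 at 0.15 (-0.02 to 0.32).

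The genes whose log-scaled values followed each member most closely were ranked by the lower of the 2 Pearson correlations over cells, 2626 in RUES2 and 4021 in 56CAG, among 7606 genes. Cells of a library share its depth and capture, and the values are descriptive. The 3 genes most like ERBB3 included EDNRA, an endothelin receptor of the crest (0.61 in RUES2 and 0.35 in 56CAG), and LMO4 (0.47 and 0.34). EDNRA was also among the 3 for S100B (0.37 and 0.19), SCRG1 (0.38 and 0.24) and TIMP3 (0.36 and 0.23), and TFAP2B was first for NGFR (0.38 and 0.23). FABP7 reached only 0.12 and 0.13 (RPS12), and GPM6B 0.06 and 0.06 (PSMD8). Inside crest cells alone, ERBB3 and LSAMP, a neural cell adhesion gene, were at 0.20 and 0.17, TIMP3 and LSAMP at 0.17 and 0.14, and S100B and PTN at 0.18 and 0.15. FABP7 and TTYH1, a membrane channel gene, were at 0.17 and 0.14 there, and GPM6B and PTN at 0.17 and 0.07.

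The other genes of the same pathways were taken from lists made for this purpose. Of 20 other Schwann precursor and crest glia genes, 14 were measured in RUES2, and 9 were at least 2-fold higher and 2 lower in crest than in neural cells (median log2 ratio 2.10, against -0.11 over all genes). In 56CAG 8 were higher and 2 lower, with a median of 1.46. These counts hold SOX10 and SOX2, which set the crest and neural classes. Without them 8 of 12 were higher and 1 was lower in RUES2, and 7 and 1 in 56CAG, with the same medians. TFAP2A, a crest transcription factor, was at 205 CPM in crest and 36.0 CPM in neural cells of RUES2, and EDNRB, an endothelin receptor, at 79.6 and 24.8 CPM. The 2 lower ones were SOX2, at 88.5 and 334 CPM, and POU3F1, a factor of promyelinating Schwann cells and of neural progenitors, at 7.40 and 42.5 CPM. Between the lines in crest cells, 0 of the 14 were 2-fold higher in 56CAG and 1 was lower, the myelin gene PMP22, at 29.3 CPM (RUES2) and 12.1 CPM (56CAG).

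The partners of ERBB3 did not follow it. Of 21 other neuregulin and ERBB genes, 13 were measured in RUES2, and 0 were 2-fold higher and 2 lower in crest cells, with a median of -0.21. The lower ones in RUES2 were NRG2, another neuregulin (1.96 CPM in crest and 21.2 CPM in neural cells), and ERRFI1, an inhibitor of EGFR signalling (8.53 and 20.1 CPM). In 56CAG 12 were measured, and 0 were 2-fold higher or lower. There ERRFI1 was at 8.88 and 14.6 CPM, and NRG2 was below the minimum (1.12 and 8.67 CPM). ERBB2, the kinase-active partner of ERBB3, was at 10.3 CPM in crest and 13.9 CPM in neural cells of RUES2 and at 7.33 and 11.7 CPM in 56CAG. NRG1, the neuregulin of axons, was at 1.45 CPM in crest and 5.23 CPM in neural cells of RUES2. These genes, TFAP2A, EDNRB, POU3F1 and PMP22 were chosen after their values were seen, as were LINGO1, SORT1, S100A16, MYADM, MMP16 and MMP17 below. Of 22 genes of neurotrophin and p75 signalling, 8 were measured in RUES2, with a median of -0.19. LINGO1, a co-receptor of p75, was higher in crest cells (21.2 and 8.38 CPM), and SORT1, which pairs with p75 in binding proneurotrophins, was lower (5.75 and 22.1 CPM).

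Relatives of the other genes split by class. Of 7 measured S100 genes, S100A10 (268 CPM in crest and 30.6 CPM in neural cells of RUES2) and S100A11 (188 and 28.0 CPM) were higher in crest cells, and S100A13 (84.6 and 324 CPM) and S100A16 (3.73 and 20.5 CPM) were lower. Among 4 measured fatty acid and retinoid binding genes other than FABP7, FABP5 was at 163 CPM in crest and 59.4 CPM in neural cells, CRABP2, a retinoic acid carrier, at 1963 and 640 CPM, and CRABP1 at 239 and 762 CPM. Of 3 measured proteolipid relatives of GPM6B in RUES2, MYADM was lower in crest cells (24.7 and 49.5 CPM), while in 56CAG 0 were lower. Of 8 measured TIMP and metalloproteinase genes in RUES2, 2 were higher in crest cells, the membrane-bound proteases MMP16 (45.5 and 17.9 CPM) and MMP17 (25.0 and 4.00 CPM), and 0 were lower. Of 4 measured genes of the astrocyte list, 3 were lower in crest cells in both lines, namely CLU, a secreted chaperone (51.5 CPM in crest and 314 CPM in neural cells of RUES2), GJA1, a gap junction protein, and SOX9. Of 11 measured radial glia genes in RUES2, 2 were higher, among them PTN, a growth factor (804 and 277 CPM), and 1 was lower, GLI3 (54.7 and 114 CPM). In 56CAG 0 of 11 were higher and 1 was lower, HES1 (22.2 CPM in crest and 58.0 CPM in neural cells), so PTN and GLI3 passed 2-fold in RUES2 only. PTPRS, a receptor phosphatase of the same list, was at 33.8 CPM (RUES2) and 88.4 CPM (56CAG) in crest cells.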

How the data were processed

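The authors deposited, for each of the 2 libraries, 1 matrix of unnormalized UMI counts with gene symbols in rows and cells in columns. Per the labels' protocols, cells were captured on the Chromium system. Cell Ranger 2.0.2, R 3.5.1, Seurat 2.3.4 and hg19 are named in the submitters' processing notes, with settings not given in the sources used here. RUES2 held 2626 cells and 43373134 UMIs (median 13368 per cell), and 56CAG 4024 cells and 55051472 UMIs (median 10547). Cells with under 500 genes or at least 10% mitochondrial UMIs were left out, 0 in RUES2 and 3 in 56CAG. Doublets were not removed.

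The members, gene lists and class rule were chosen with earlier results of these data known. Counts were summed over the cells of a class and scaled to CPM, with an exact Poisson interval. Ratios of 2 sums have an exact conditional interval, and differences of log2 ratios a normal-approximation interval of counting error. A gene entered a comparison at 10 CPM in 1 of the 2 sums, the members were printed whether or not they reached it, and a sum of 0 was set to 3 counts. Lacking replicates, no test was run and no p-value computed. Shares of cells used counts thinned to 5400 UMIs (seed 1), which every cell reached. Likeness used log2 of UMIs per 10000 plus 1. Apart from the members, the text names the 3 genes most like a member, list genes of at least 50 CPM past 2-fold (at most 4 a list), class genes and markers. Some genes that this rule names are not reported here. The MITF and NEUROG1 splits name their splitting genes. Chromosomes came from RefSeq by symbol, for 7358 of 8037 genes in crest cells. The ratios were tested on simulated Poisson counts with known folds. These held no variation between cells or libraries, so they cannot check the intervals against it. Python 3.11.15, numpy 2.4.6, pandas 2.3.3 and scipy 1.17.1 were used. Of the alternatives, 12 were planned and 2 were added after the data were seen.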

Additional observations from a re-analysis of the deposited data

Results flagged for a closer look

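For 3 genes the difference between the lines had opposite signs in the 2 classes, lower in 56CAG crest cells and higher in 56CAG neural cells. The log2 ratio in neural cells minus that in crest cells was 1.00 for ERBB3 (-0.29 in crest and 0.71 in neural cells), 0.58 for NGFR (-0.15 and 0.43) and 0.75 for TIMP3 (-0.14 and 0.61). With 1 library per line this difference was not tested across replicates. Relative to the median of all genes, the crest values of NGFR and TIMP3 came to 0.00, so that the opposite signs were kept by ERBB3 alone. The neural ratio of ERBB3 fell to 0.15 on thinned counts and classes. In neural cells with 0 UMIs of TFAP2B and SOX10 it was 0.50 (-0.36 to 1.32), so its positive sign was not resolved there.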

How the results depend on the processing

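No paired analysis was possible because each line gave 1 library, and for the same reason no replicate could be left out. Of 76 counts of genes past 2-fold under the alternatives, 73 were within 1.5 times the reported count. The sizes of the ratios were less stable. Under the alternatives 121 log2 ratios of the 7 genes lay outside the counting interval of the reported value and 411 inside it. For crest over neural, this ranged from 0 (FABP7, 56CAG) to 10 (ERBB3, each line) of 14 alternatives. The count of genes lower in 56CAG crest cells was 1 in place of 2 with limits of 8 and 4, and 1 relative to the median of all genes, since S100B dropped out. The count lower in other cells was 0 in place of 1 relative to that median, where SCRG1 came to 1.06 and so passed 2-fold upwards. No reported log2 ratio that was called changed sign. The 5 genes high in crest cells kept log2 ratios of at least 0.93 (NGFR, 56CAG), and ERBB3 ranged from 2.14 to 5.40 in RUES2. The highest values came from neural cells with no TFAP2B or SOX10 UMI, an alternative added after the data were seen, except for TIMP3 in RUES2 (2.71 on thinned counts and 2.67 in those cells). In neural cells the line ratio of TIMP3 ranged from 0.11 to 0.82, that of ERBB3 from 0.15 to 0.92 and that of SCRG1 from 1.19 to 1.51. With a minimum of 10 UMIs in both sums together, the share of all genes past 2-fold in 56CAG crest cells was 4.82% in place of 1.33%. All 56 shares of cells were higher without thinning. Depth limits S100B in neural cells, which rests on 81 and 40 UMIs.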
